A study of Mus musculus with 16 samples.

Results

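The 7 genes described here mark the rarer endocrine cells of the mouse pancreatic islet. *Sst*, *Hhex*, *Rbp4* and *Ghsr* are markers of delta cells, *Ppy* and *Pyy* of PP cells, and *Ghrl* of ghrelin cells. They were taken by symbol from both expression tables of the study and are 7 of the 16815 genes that the tables share. All 7 have a value in all 16 libraries (*Ghrl* is at 0 in Ctrl3), also as a ratio to the summed insulin RNA of the library (*Ins1* plus *Ins2*). The choice was made with results of these data in view, among them the high *Ghrl* values after B7-H4 overexpression, so the *Ghrl* values in that comparison are given as a description with no test.

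The study asked how the immune checkpoint molecule B7-H4, encoded by *Vtcn1*, acts in β cells, and RNA was sequenced from islets picked by hand after collagenase digestion of the pancreas. All mice carried, per the study's methods, *Vtcn1* alleles with exon 2 flanked by loxP sites (B7-H4 fl/fl) on a C57BL/6J background. The Flox group (libraries Flox16, Flox17, Flox20 and Flox21) held what the study describes as littermate Flox controls, taken here as without Cre, on normal chow. The B7-H4 cKO group (cKO8, cKO9, cKO12 and cKO38) additionally carried Rip-Cre, a transgene that drives Cre recombinase from the rat insulin II promoter (B6.Cg-Tg(Ins2-cre)25Mgn/J). The design notes also list a Pdx-Cre line, no islets with Rip-Cre alone were sequenced among these libraries, and the ages of the chow mice were not given, so the transgene and the loss of B7-H4 cannot be told apart. Mice of the other table were 6 weeks old when a high-fat diet (HFD) began, and after 8 weeks of HFD a virus was infused into the pancreatic duct. The Ctrl group (Ctrl1, Ctrl2, Ctrl3 and Ctrl5) received the control virus AAV2/8-Ctrl and the OE group (OE1 to OE4) received AAV2/8-Ins2-B7-H4, which carries B7-H4 and the green fluorescent protein ZSGreen under an insulin promoter, with islets taken 5 weeks later. The sample records call these HFD mice wild type where the methods call them Flox. Each group had 4 libraries, and because nothing stated says whether a library is 1 animal or a pool, p-values measure the spread between these libraries.

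Islets are mostly insulin-secreting β cells and glucagon-secreting α cells, with smaller populations around them. Delta cells release somatostatin, which acts on neighbouring cells through somatostatin receptors and restrains the release of insulin and glucagon, while PP cells release pancreatic polypeptide, and peptide YY is a related peptide. Ghrelin cells are common in the fetal islet and rare in the adult one, and the ghrelin receptor in the islet is found on delta cells.

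Values are FPKM, the sequenced fragments of a gene scaled by its transcript length and by the mapped fragments of the library. Summed FPKM per library ran from 686299 to 865112, with 14822 to 15984 genes above 0. Sequencing depth is not given, but the values of a gene in the libraries of a table were whole multiples of what 1 fragment is worth (tolerance 0.05 fragments), and that worth varied by 1.14-fold in the chow table and 1.29-fold in the HFD table. Fragment numbers below were recovered this way and hold up to a common factor, and their intervals cover counting error only. *Vtcn1* was at 75.6 ± 37.5 FPKM (SD, n = 4) in OE and 0.267 ± 0.141 FPKM in Ctrl, whereas in the chow table it was close to 0 in both groups, at 0.0786 ± 0.0933 FPKM in Flox and 0.0574 ± 0.0493 FPKM in cKO, so its level does not check the knockout labels. The gene *Tph1* was at 116 to 150 FPKM in cKO and also at 112 FPKM in Flox16. In Flox17, Flox20 and Flox21 it was at 0.0318 to 0.0885 FPKM. What sets Flox16 apart was not tested, and its label was taken as given. The Ctrl group was uneven. The summed FPKM of 19 acinar (digestive enzyme) genes took 53.5% of the library in Ctrl2, 70.4% in Ctrl3, 5.14% in Ctrl1 and 2.00% in Ctrl5, against 10.3% to 13.4% in the OE libraries. Insulin RNA was at 34236 FPKM in Ctrl3 and at 142735 FPKM in Ctrl2, against 307351 to 347988 FPKM in OE. In the chow table the acinar share was 7.02% to 33.5% in Flox and 34.1% to 42.9% in cKO. In such bulk libraries fewer cells of a type and less RNA per cell cannot be told apart.

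**Figure D1:**
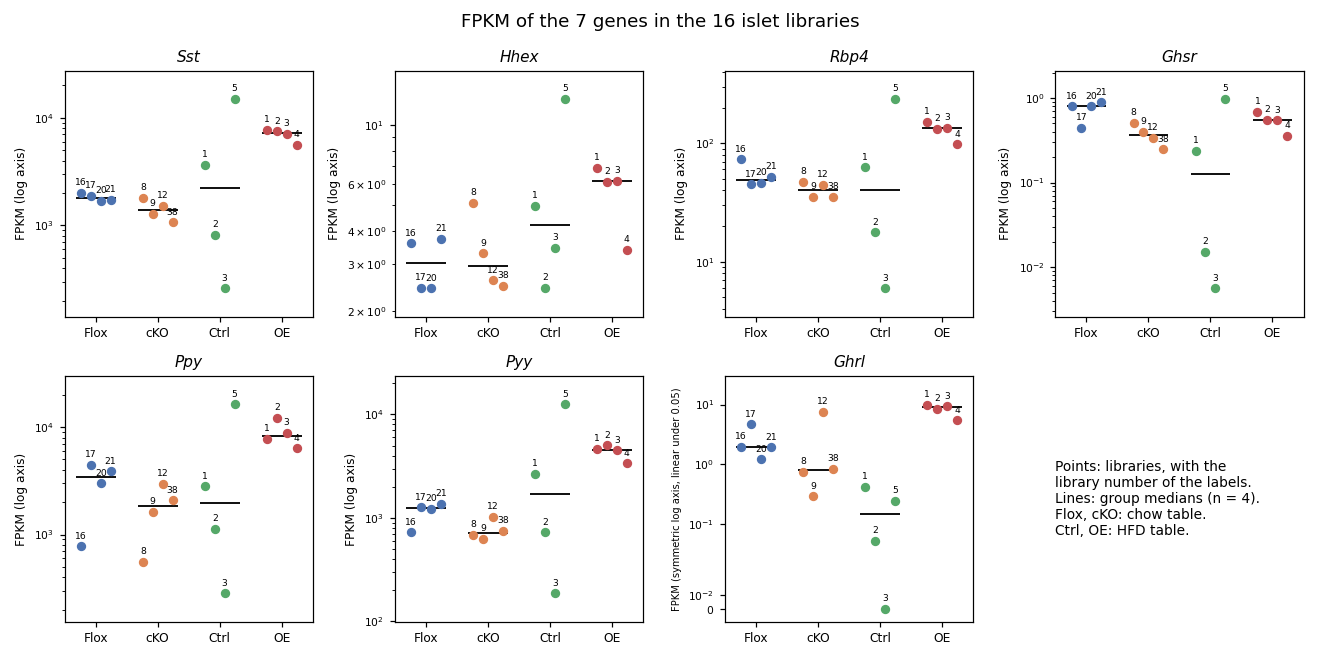
FPKM of the 7 genes (log axes, linear under 0.05 FPKM for *Ghrl*) in each library of the Flox, cKO, Ctrl and OE groups, with a bar at the group median and the library number beside each point. Ctrl spans the widest range for *Sst*, from 262 to 14856 FPKM, and *Ghrl* is the gene for which all 4 OE libraries lie above all 4 Ctrl libraries.

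*Sst*, which encodes somatostatin, was the defining delta cell transcript in these islets and was abundant everywhere. It lies on the minus strand of chromosome 16 (GRCm38, chr16:23889573-23890958 in the GENCODE annotation). A 30-base stretch of its RefSeq promoter is shown because it holds the best known control element of this gene, the cAMP response element, in capitals.

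Sst, chr16:23890874-23890903, minus strand: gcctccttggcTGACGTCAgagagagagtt

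The element TGACGTCA lies 48 to 41 bases before the RefSeq start, inside the GENCODE gene, whose annotated start is further upstream. The same 8 letters, which read alike on both strands, were present in the 100 bases before the start in 1.15% of 32851 RefSeq start sites (379 windows). The Flox libraries, in the order Flox16, Flox17, Flox20 and Flox21, had *Sst* at 2002, 1894, 1688 and 1729 FPKM. The cKO libraries, in the order cKO8, cKO9, cKO12 and cKO38, had it at 1794, 1280, 1522 and 1071 FPKM. The groups overlapped through cKO8, which was above Flox20 and Flox21. In the HFD table it was at 3676, 820.0, 262 and 14856 FPKM in Ctrl1, Ctrl2, Ctrl3 and Ctrl5, and at 7737, 7450, 7067 and 5634 FPKM in OE1 to OE4. The OE libraries were close together, within 1.37-fold, while the Ctrl libraries spread over 56.7-fold and enclosed them, 3 below and 1 above. The 6947 *Sst* fragments of Ctrl3 were the fewest of any library, so counting error was small for this gene throughout.

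*Rbp4* encodes retinol binding protein 4, a carrier of vitamin A that is enriched in delta cells, and lies at chr19:38116629-38125281. It was at 73.1, 45.1, 46.2 and 52.0 FPKM in the Flox libraries and 47.2, 35.4, 44.6 and 35.2 FPKM in the cKO libraries, in the order used for *Sst*. In the HFD table it was at 62.5, 17.7, 5.98 and 235 FPKM in Ctrl1, Ctrl2, Ctrl3 and Ctrl5 and at 151, 132, 135 and 97.9 FPKM in OE. The order of the Ctrl libraries was that of *Sst*, with Ctrl5 highest and Ctrl3 lowest, and the Flox and cKO ranges overlapped. Per 1000 FPKM of *Sst* it was the steadiest of the delta cell genes, ranging from 15.8 to 36.5 over all 16 libraries, a 2.30-fold range beside the 56.7-fold range of *Sst* itself among the Ctrl libraries. The means per 1000 FPKM of *Sst* were 29.5 ± 5.37 in Flox, 29.0 ± 2.84 in cKO, 19.3 ± 3.40 in Ctrl and 18.4 ± 1.05 in OE (SD, n = 4), which put cKO beside Flox and OE beside Ctrl with overlapping ranges. The tables were made separately, so the step between them was not tested.

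*Hhex*, a homeobox transcription factor needed for delta cell identity (chr19:37434810-37440731), was expressed at a few FPKM. It was at 3.59, 2.45, 2.44 and 3.73 FPKM in Flox and 5.09, 3.30, 2.61 and 2.49 FPKM in cKO. In Ctrl1, Ctrl2, Ctrl3 and Ctrl5 it was at 4.97, 2.45, 3.47 and 12.51 FPKM and in OE at 6.90, 6.10, 6.19 and 3.40 FPKM. *Hhex* did not follow *Sst* in the libraries rich in acinar RNA: per 1000 FPKM of *Sst* it was 13.2 in Ctrl3 and 2.98 in Ctrl2 but 0.842 in Ctrl5 and 0.604 to 0.892 in OE. Its fragments numbered 129 to 633 per library.

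*Ghsr*, the ghrelin receptor (chr3:27371351-27378010), was below 1 FPKM in all 16 libraries. The Flox libraries had 0.801, 0.440, 0.796 and 0.891 FPKM and the cKO libraries 0.509, 0.398, 0.338 and 0.246 FPKM, so that Flox17 alone of the Flox libraries lay within the cKO range. In OE it was at 0.692, 0.554, 0.543 and 0.360 FPKM. In Ctrl1 and Ctrl5 it was at 0.238 and 0.970 FPKM, whereas Ctrl2 and Ctrl3 held 3 fragments and 1 fragment. Per 1000 FPKM of *Sst* it was 0.405 ± 0.124 in Flox, 0.262 ± 0.0427 in cKO, 0.0425 ± 0.0260 in Ctrl and 0.0761 ± 0.0105 in OE (SD, n = 4). Against its own cell type's hormone, *Ghsr* was thus lower in every HFD library than in every chow library, and this step lies between separately made tables.

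*Ppy* and *Pyy*, encoding pancreatic polypeptide and peptide YY, are neighbours on the minus strand of chromosome 11, at chr11:102099930-102101319 and chr11:102106676-102107832 with 5356 bases between them. The 100 bases before their RefSeq starts (for *Pyy* the outermost of 2) are shown because these genes varied together across the libraries, with TATAA in capitals.

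Ppy, chr11:102101320-102101419, minus strand: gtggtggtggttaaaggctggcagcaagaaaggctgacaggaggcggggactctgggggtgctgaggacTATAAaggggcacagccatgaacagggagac

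Pyy, chr11:102107833-102107932, minus strand: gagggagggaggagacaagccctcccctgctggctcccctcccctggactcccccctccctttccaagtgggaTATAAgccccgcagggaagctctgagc

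Both windows hold TATAA, at 31 to 27 bases before the start in *Ppy* and 27 to 23 in *Pyy*. TATAA, read on either strand, is present in 10.2% of such windows over all RefSeq start sites.

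*Ppy* was the most variable of the abundant members within the chow groups. It was at 778, 4432, 2990 and 3868 FPKM in the Flox libraries, in the order used for *Sst*, and at 555, 1634, 2982 and 2085 FPKM in the cKO libraries. Flox16 and cKO8 were low, 5.69-fold and 5.37-fold below the highest library of their own group. In the HFD table *Ppy* was at 2821, 1131, 283 and 16288 FPKM in Ctrl1, Ctrl2, Ctrl3 and Ctrl5 and at 7752, 12194, 8900 and 6354 FPKM in OE. The OE libraries again lay inside the Ctrl range, above 3 Ctrl libraries and below Ctrl5.

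*Pyy* spread less than *Ppy* within Flox, cKO and OE, though not within Ctrl, where its highest library was 67.3-fold above its lowest against 57.6-fold for *Ppy*. It was at 723, 1268, 1230 and 1373 FPKM in Flox and 687, 623, 1018 and 747 FPKM in cKO, with Flox16 again the lowest Flox library. In Ctrl1, Ctrl2, Ctrl3 and Ctrl5 it was at 2654, 724, 186 and 12509 FPKM, and in OE at 4618, 5028, 4512 and 3356 FPKM. The *Pyy* to *Ppy* ratio was 0.929 in Flox16 and 1.24 in cKO8 but 0.286 to 0.412 in the other 6 chow libraries, so the low *Ppy* of these 2 libraries was not matched by *Pyy*. The *Ppy* to *Sst* ratio showed the same pair, at 0.389 in Flox16 and 0.310 in cKO8 against 1.28 to 2.34 in the other chow libraries. In the HFD table this ratio stayed between 0.768 (Ctrl1) and 1.64 (OE2), so the wide spread among the Ctrl libraries was shared by *Ppy* and *Sst*. Flox16 and cKO8 carry different genotype labels, though *Tph1* was at 112 FPKM in Flox16 and 116 FPKM in cKO8. High *Tph1* was not confined to this pair. The remaining cKO libraries had 121 to 150 FPKM of *Tph1* with *Ppy* to *Sst* ratios of 1.28 to 1.96. The part of genotype in the low *Ppy* of Flox16 and cKO8 was not tested.

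*Ghrl* encodes ghrelin, the peptide hormone best known from the stomach, and lies on the minus strand of chromosome 6 (chr6:113716119-113719880). The 100 bases before the outermost of its 4 RefSeq starts are given because this gene carries the clearest separation of the HFD groups, and they hold no match to TATAA, TAAT (the core of homeobox factor sites) or TGACGTCA on either strand.

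Ghrl, chr6:113719912-113720011, minus strand: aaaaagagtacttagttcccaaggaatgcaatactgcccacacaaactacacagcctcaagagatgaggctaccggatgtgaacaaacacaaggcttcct

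TAAT on either strand is present in 27.3% of such windows. *Ghrl* was a low transcript, at 1.96, 4.69, 1.21 and 1.93 FPKM in the Flox libraries in the same order. It was at 0.755, 0.292 and 0.842 FPKM in cKO8, cKO9 and cKO38 but at 7.62 FPKM in cKO12, so that 3 cKO libraries lay below every Flox library and 1 above every Flox library. In fragments this was 23 to 83 per Flox library, 5, 13 and 14 in 3 cKO libraries and 134 in cKO12 (95% Poisson interval 112 to 159).

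In the HFD table *Ghrl* was at 9.98, 8.55, 9.39 and 5.47 FPKM in OE1 to OE4, from 198, 167, 197 and 108 fragments. In Ctrl1, Ctrl2 and Ctrl5 it was at 0.417, 0.0522 and 0.246 FPKM, from 7, 1 and 4 fragments, and no fragment was found in Ctrl3, which allows up to 3. Group means were 8.35 ± 2.01 FPKM in OE and 0.179 ± 0.191 FPKM in Ctrl (SD, n = 4), a separation of every OE library from every Ctrl library. On the log2(FPKM + 0.5) scale the difference was 3.71, which understates the change of a gene this low, and it was 2.97 with 1 FPKM added and 5.17 with 0.1 FPKM added. All 4 Ctrl libraries, Ctrl5 with its high *Sst* and *Ppy* included, were below the Flox range of the separately made chow table.

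Some genes of other cell types were high in the same libraries as *Ghrl*, and those named here were chosen after their values were seen, so they are given with no test. *Prph* encodes the neuronal filament protein peripherin and *Vip* encodes vasoactive intestinal peptide. Summed *Prph* and *Vip* was 3.34 to 5.22 FPKM in OE and 0 to 0.282 FPKM in Ctrl. The 12 listed neuron markers, summed, were at 58.3 to 65.0 FPKM in OE and 5.70 to 46.6 FPKM in Ctrl, with *Dbh*, *Chat*, *Slc18a3* and *Nefl* at 0 in all Ctrl libraries. Most of the neuron sum was *Th* (31.3 ± 1.68 FPKM in OE, 13.9 ± 10.5 in Ctrl) and *Npy* (20.4 ± 3.29 in OE, 8.10 ± 6.52 in Ctrl). *Nefm* was at 4.20 ± 0.420 FPKM in OE and 3.62 ± 3.38 FPKM in Ctrl, with overlapping ranges. *Dbh* was close to 0 in OE too, at 0.0095 ± 0.0122 FPKM. The 11 listed enterocyte (gut absorptive cell) markers summed to 71.2 to 81.0 FPKM in OE and 18.0 to 60.8 FPKM in Ctrl, with *Fabp2*, *Sis* and *Alpi* at 0 in all Ctrl libraries. Most of that sum was *Vil1* (35.6 ± 3.58 FPKM in OE, 20.2 ± 12.96 in Ctrl) and *Anpep* (31.9 ± 1.28 in OE, 19.1 ± 4.91 in Ctrl), it reached 69.3 FPKM in Flox, and *Slc5a1* was at 0.404 ± 0.0910 FPKM in OE and 0.594 ± 0.531 FPKM in Ctrl. Summed *Fabp2* and *Apoa4* was 0.105 to 3.53 FPKM in OE against at most 0.0210 FPKM in Ctrl. Within OE this sum did not follow *Ghrl*, as it was lowest in OE2, with *Ghrl* at 8.55 FPKM, and highest in OE4, with *Ghrl* at 5.47 FPKM. The part of these cell types in the *Ghrl* values was not tested. In the chow table cKO12, the library with the highest *Ghrl*, also had the highest summed *Prph* and *Vip* at 7.27 FPKM, but Flox21 had 5.96 FPKM with *Ghrl* at 1.93 FPKM, and *Fabp2* and *Apoa4* were at 0 in cKO12. Flox17, the Flox library with the highest *Ghrl*, had the gut secretory cell genes *Mptx1* at 15.9, *Clca1* at 8.09 and *Tff3* at 4.63 FPKM. Each was at most 0.0684 FPKM in the other Flox libraries, and *Mptx1* and *Clca1* were at 0 in cKO12. *Mboat4*, the enzyme that attaches the fatty acid ghrelin needs for its receptor, was barely detected, with 0, 2, 1 and 0 fragments in OE1 to OE4 and 12 in Ctrl2.

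**Figure D2:**
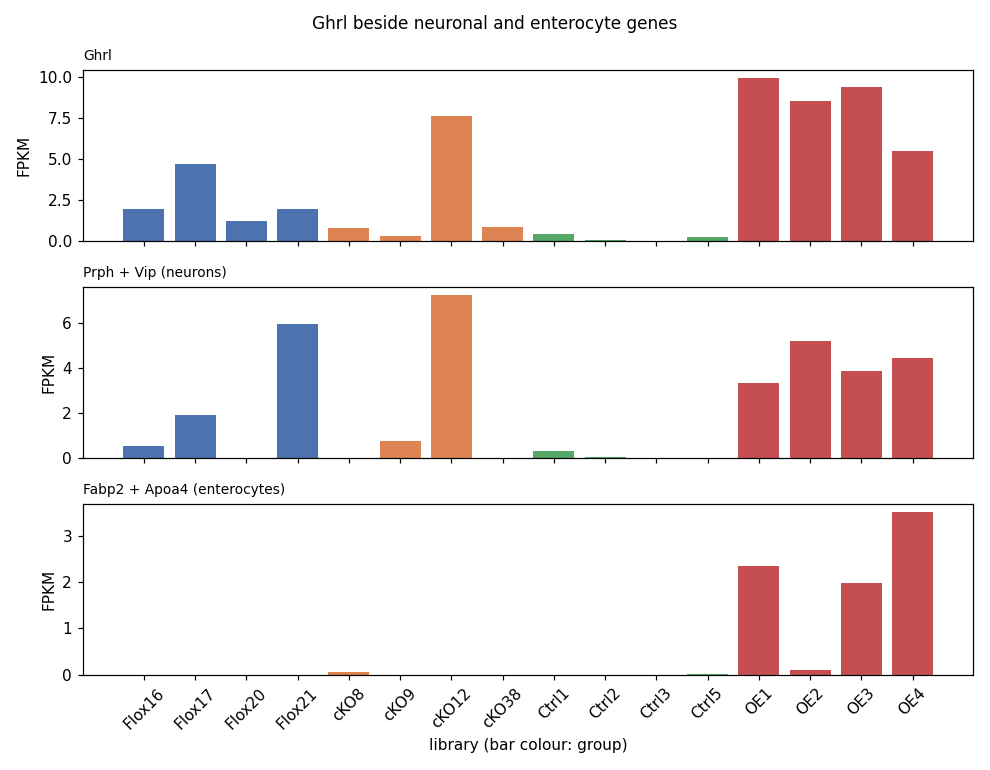
Bars give the FPKM of *Ghrl* (top), of *Prph* plus *Vip* (middle) and of *Fabp2* plus *Apoa4* (bottom) in each of the 16 libraries, coloured by group. The OE libraries are high on *Ghrl* (5.47 to 9.98 FPKM) and on *Prph* plus *Vip*, and cKO12 is high on the same panels, with *Ghrl* at 7.62 FPKM, but at 0 on the bottom panel.

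Relative to insulin RNA, the members were arranged differently. *Sst* per 1000 FPKM of insulin was 4.99 to 8.36 in Flox and 5.85 to 7.99 in cKO, with group ranges that overlapped fully. In Ctrl1, Ctrl2 and Ctrl3 it was 10.4, 5.75 and 7.65, closer together than their FPKM, and in Ctrl5 it was 59.4. The OE libraries were at 23.7, 23.1, 23.0 and 16.2, above 3 Ctrl libraries and below Ctrl5. *Ppy* showed this most plainly, at 7.98, 7.92 and 8.26 per 1000 FPKM of insulin in Ctrl1, Ctrl2 and Ctrl3, 65.1 in Ctrl5, and 23.8, 37.9, 29.0 and 18.3 in OE. *Pyy* was at 7.51, 5.07, 5.43 and 50.0 in Ctrl1, Ctrl2, Ctrl3 and Ctrl5 and at 14.2, 15.6, 14.7 and 9.64 in OE, and *Rbp4* at 0.177, 0.124, 0.175 and 0.942 in Ctrl and 0.465, 0.410, 0.438 and 0.281 in OE. For *Sst*, *Rbp4*, *Ppy* and *Pyy* alike, then, the OE libraries lay between Ctrl5 and the other 3 Ctrl libraries.

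**Figure D3:**
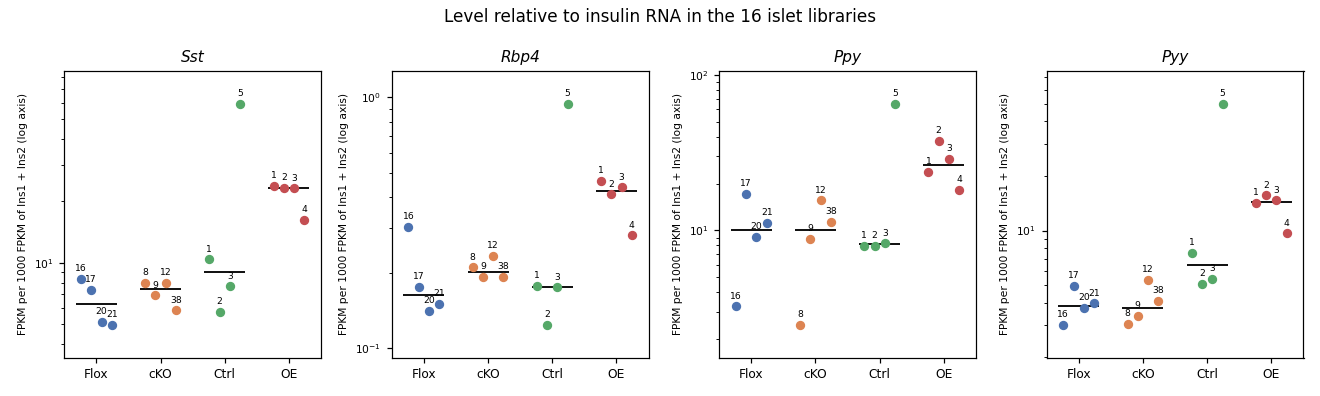
*Sst*, *Rbp4*, *Ppy* and *Pyy* per 1000 FPKM of *Ins1* plus *Ins2* (log axes) in each library, with a bar at the group median and the library number beside each point. For *Ppy*, 3 Ctrl libraries sit together between 7.92 and 8.26, the OE libraries between 18.3 and 37.9, and Ctrl5 at 65.1.

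Of the summed hormone FPKM (*Ins1*, *Ins2*, *Gcg*, *Sst*, *Ppy* and *Pyy*), Ctrl5 gave 3.86% to *Sst*, 4.23% to *Ppy* and 3.25% to *Pyy*, with 23.7% for the glucagon gene *Gcg* and 64.9% for insulin. The OE libraries gave 1.44% to 2.05% to *Sst*, 1.63% to 3.27% to *Ppy* and 0.860% to 1.35% to *Pyy*. In the chow table *Sst* took 0.474% to 0.774%. Ctrl5 was thus the library richest in every non-β hormone measured here, *Ghrl* apart.

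**Figure D4:**
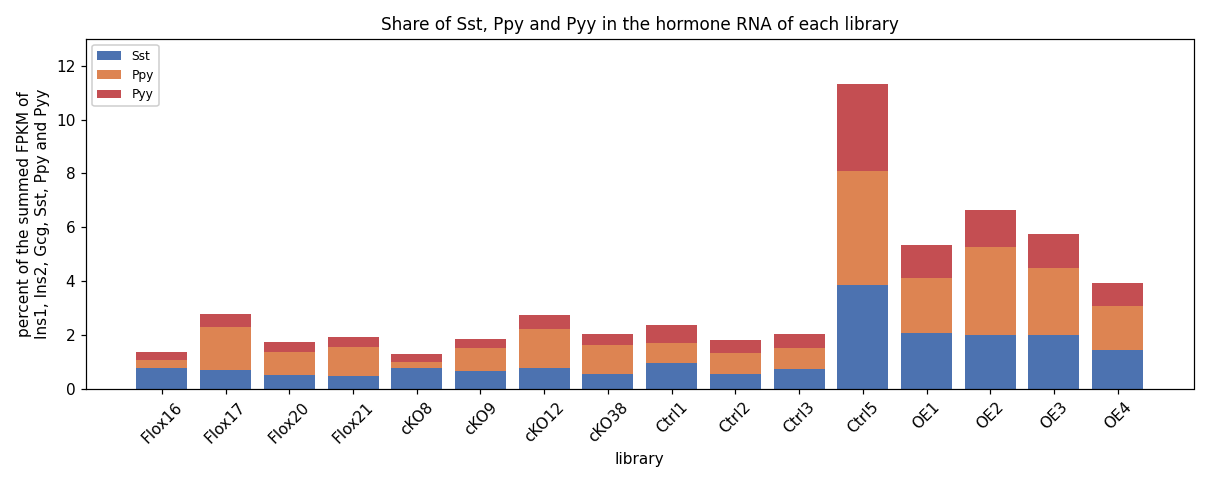
Percent of the summed FPKM of *Ins1*, *Ins2*, *Gcg*, *Sst*, *Ppy* and *Pyy* that was *Sst*, *Ppy* or *Pyy* in each library (stacked bars). Ctrl5 stands highest, with *Sst* at 3.86% and *Ppy* at 4.23%, the OE libraries follow, and Flox16 and cKO8 have the smallest *Ppy* segments.

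Ordered by group median, the FPKM of *Sst*, *Hhex* and *Pyy* ran from cKO through Flox and Ctrl to OE, with each neighbouring pair overlapping. For *Rbp4* and *Ppy* the order was cKO, Ctrl, Flox and OE, and Flox and OE did not overlap. Flox and OE were also apart for *Sst* and *Pyy*, where Ctrl stood between them in the order. *Sst* reached 2002.5 FPKM in Flox and began at 5634 FPKM in OE, and *Pyy* reached 1373 and began at 3356 FPKM. *Ghsr* ran from Ctrl through cKO and OE to Flox, again with overlap at each step, and *Ghrl* from Ctrl through cKO and Flox to OE, where Flox and OE did not overlap. Steps between chow and HFD groups set separately made tables side by side and were not tested.

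To ask whether loss of B7-H4 in β cells went with a change in these cells' transcripts, cKO was compared with Flox by limma on log2(FPKM + 0.5) over the 11804 genes that averaged 0.5 FPKM or more, as all 7 members did. A gene was called at a Benjamini-Hochberg adjusted p below 0.05 and an absolute log2 fold change above 1. No member was called (0 of 7), where 1.31% of all genes tested were, and none had groups that did not overlap, where 16.8% of all genes did. Over all genes the median was −0.34. *Sst* came out at −0.39 (standard error 0.13, 95% interval −0.67 to −0.11, limma adjusted p = 0.0533, 0.0168 to 0.989 over the alternatives), and *Rbp4* had −0.40 (standard error 0.18, adjusted p = 0.104). For both, the distance from the median of all genes was small, −0.050 for *Sst* and −0.054 for *Rbp4*. *Ghsr* had −0.49 (standard error 0.19, limma adjusted p = 0.0709), with 0.732 ± 0.199 FPKM in Flox and 0.373 ± 0.110 FPKM in cKO (SD, n = 4). The 0.5 FPKM added understates the change of a gene this low, and with 0.1 FPKM added it was −0.81. *Pyy* had −0.56 (standard error 0.22, limma adjusted p = 0.0985) and *Ppy* −0.71 with a standard error of 0.76 and an interval of −2.55 to 1.14 (adjusted p = 0.479). The *Ppy* value was −1.27 without Flox16 and −0.21 without cKO8. *Ghrl*, at −0.57 (standard error 0.80, limma adjusted p = 0.581), had cKO12 above and the other 3 cKO libraries below every Flox library (−1.29 without cKO12), and *Hhex* was the member with a positive value, 0.10 (standard error 0.22, adjusted p = 0.721). When each library was divided by a median-of-ratios factor, which moved the median of all genes to −0.00086, *Sst* came to −0.0064, *Rbp4* to −0.015 and *Pyy* to −0.18. The other islet hormones also had negative values, with *Ins2* at −0.72 (limma adjusted p = 0.00744), *Ins1* at −0.22 (adjusted p = 0.184) and *Gcg* at −0.77 (adjusted p = 0.0460). The 19 acinar genes tested all had positive values with a median of 1.41 and none was called, and the part of this shift in the members' values was not tested.

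As a ratio to insulin RNA the same comparison, over 11802 genes, called no member (0 of 7), where 2.04% of all genes were called, and none had separate groups, where 15.4% of all genes did. The median of all genes was here 0.23. *Hhex* had the largest value, 0.67 (standard error 0.20, limma adjusted p = 0.0504), from 0.0107 ± 0.00320 per 1000 FPKM of insulin in Flox and 0.0170 ± 0.00431 in cKO (SD, n = 4), with overlapping groups. *Sst* was at 0.18 (95% interval −0.31 to 0.67), *Rbp4* at 0.17 (−0.30 to 0.65), *Ghsr* at 0.078 (−0.28 to 0.43) and *Pyy* at 0.0056 (−0.47 to 0.48). For these 4 genes the intervals contain 0 and reach no further than 0.67 from it. The value and interval of *Ghsr*, a gene below 1 FPKM, hold for the 0.5 FPKM added before the ratio. With 0.1 FPKM added its value was −0.24. With none added it was at 0.00251 ± 0.00067 per 1000 FPKM of insulin in Flox and 0.00188 ± 0.00042 in cKO (SD, n = 4). The interval was wide for *Ppy* (−1.70 to 1.42) and *Ghrl* (−1.90 to 1.89), so a log2 difference of 1 in either direction lies inside both. *Ins2* itself had a negative value in cKO, so this scale sets the members against genes that are an outcome too.

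To ask whether overexpression of B7-H4 in HFD islets went with a change, OE was compared with Ctrl in the same way over 12132 genes, of which 0.033% were called (4 genes, all higher). *Ghsr*, with a mean below 0.5 FPKM, was not in this fit, and no test is given for *Ghrl*, since this comparison had a part in choosing it. None of the 5 members tested was called. *Ghrl* was the only member with every OE library above every Ctrl library, which held for 5.61% of all genes tested. The median of all genes was 0.44. *Ppy* was at 2.13 (standard error 0.92, 95% interval 0.14 to 4.11), *Sst* 1.90 (standard error 0.95, −0.16 to 3.97), *Rbp4* 1.81 (standard error 0.85, −0.02 to 3.65) and *Pyy* 1.57 (standard error 0.98, −0.55 to 3.70), each with a limma adjusted p of 0.591. *Hhex* was at 0.15 (standard error 0.49, adjusted p = 0.858).

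The Ctrl libraries decided these values. Without Ctrl5 the log2 fold changes were 3.14 for *Ppy*, 2.90 for *Sst*, 2.71 for *Rbp4* and 2.61 for *Pyy* (limma adjusted p 0.226 to 0.235, and 0.226 to 0.998 for these 4 genes over all alternatives). Without Ctrl3 they were 1.196 for *Ppy*, 0.96 for *Sst*, 0.98 for *Rbp4* and 0.58 for *Pyy*. Without Ctrl2 and Ctrl3, the pair with the most acinar RNA (a comparison chosen after the data were seen), they were 0.33 for *Ppy*, −0.095 for *Sst*, 0.069 for *Rbp4* and −0.41 for *Pyy*, while *Ghrl* was at 3.39. The part of acinar RNA in these differences was not tested. This omission cannot decide it, since it leaves Ctrl1 and Ctrl5 alone, and Ctrl5 had the highest *Sst*, *Rbp4*, *Ppy* and *Pyy* of all libraries. *Ghsr* was compared by a two-sided exact permutation test of its FPKM, with 0.537 ± 0.136 in OE and 0.307 ± 0.455 in Ctrl (SD, n = 4), a difference of 0.230 (exact p = 0.371; the smallest possible is 0.0286). Without Ctrl5, the highest Ctrl library, the difference was 0.451 FPKM, with an exact permutation p = 0.0286, the smallest possible. This p is not adjusted for the number of omissions, and leaving out any other single library gave an exact permutation p of 0.343 to 0.629.

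As a ratio to insulin the comparison of OE with Ctrl called none of 12130 genes by limma (0%), although 3809 had an unadjusted p below 0.05. *Ghrl* was again the member with every OE library above every Ctrl library, at 0.0157 to 0.0306 per 1000 FPKM of insulin in OE and 0 to 0.00118 in Ctrl, a separation in this direction that 0.577% of all genes showed. Its log2 difference was 2.54. The median of all genes was −0.74. *Ppy* was at 0.95 (standard error 1.05, limma adjusted p = 0.439), *Sst* at 0.73 (standard error 1.02, adjusted p = 0.535), *Rbp4* at 0.64 (standard error 0.51, adjusted p = 0.304), *Pyy* at 0.40 (standard error 0.94, adjusted p = 0.714) and *Hhex* at −1.02 (standard error 0.55, adjusted p = 0.184). The *Hhex* value rested on Ctrl3, at 0.101 per 1000 FPKM of insulin against 0.0141 to 0.050 in the other Ctrl libraries, since *Hhex* kept its level there while insulin RNA was low. For *Ghsr* the exact permutation p was 0.714, and 0.0571 without Ctrl5.

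**Figure D5:**
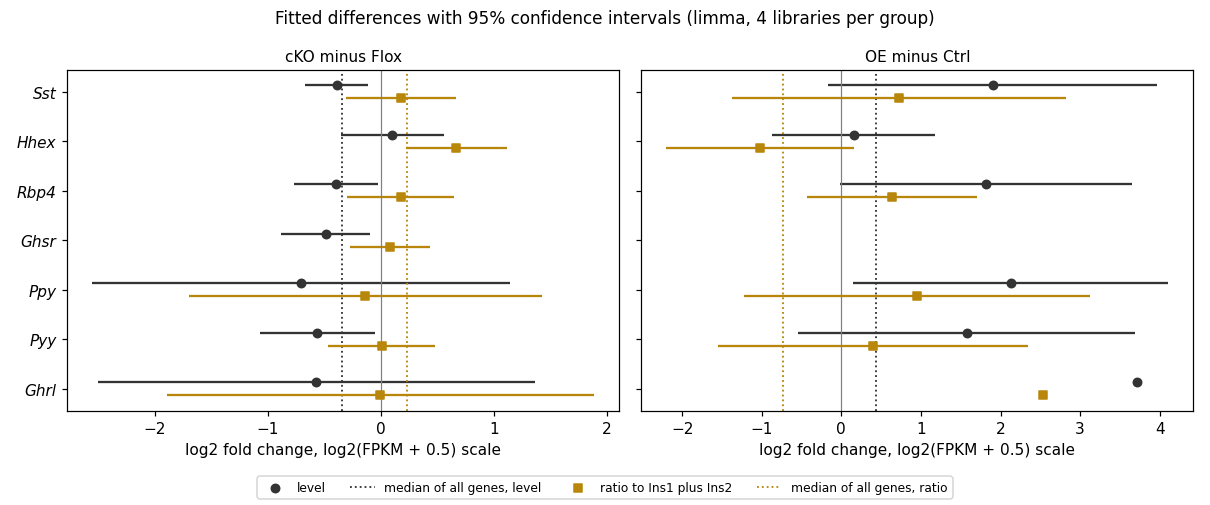
Fitted log2 differences of the members with 95% confidence intervals from limma, cKO minus Flox on the left and OE minus Ctrl on the right, as a level (circles) and as a ratio to insulin (squares), with dotted lines at the median of all genes. *Ghrl* in OE minus Ctrl is drawn without an interval (3.71 as a level, 2.54 as a ratio) and *Ghsr*, not fitted there, has no point.

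Further genes of the same cells were taken from lists written from general knowledge. Their counts stand beside all genes tested, of which 86.9% had negative values in cKO against Flox (1.31% called) and 15.8% in OE against Ctrl (0.033% called). Of 6 delta cell genes 2 were tested in cKO against Flox and none was called, with *Spock3* at −0.15 (limma adjusted p = 0.538). In OE against Ctrl 5 were tested, all had positive values (median 0.64, all genes 0.44) and none was called. Of 5 PP cell genes 4 were tested in cKO, all 4 had negative values (median −0.37, all genes −0.34) and none was called. *Etv1*, a transcription factor, came closest at −0.998 (limma adjusted p = 0.0129), with 3.13 ± 0.585 FPKM in Flox and 1.31 ± 0.174 FPKM in cKO (SD, n = 4) and no overlap. *Tspan8*, a membrane protein, was at −0.57 (adjusted p = 0.111). In OE 3 of the 4 had positive values (median 1.03), with *Tspan8* at 1.54 (limma adjusted p = 0.591), and none was called. Of 3 ghrelin cell genes *Arg1*, arginase, was tested and was at −0.13 in cKO and 1.46 in OE, and neither was called (adjusted p = 0.562 and 0.591). *Arg1* did not follow *Ghrl* in these libraries. Its highest value was 26.6 FPKM in Ctrl5, where *Ghrl* was at 0.246 FPKM, and it is among the genes most like *Sst* below. It is therefore not taken as a measure of ghrelin cells.

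The receptors through which these peptides act were mostly too low to test. Of 10 somatostatin and neuropeptide Y family receptors 7 were measured and 2 tested. *Sstr3*, a somatostatin receptor, was at −0.83 in cKO (limma adjusted p = 0.0195) without reaching the fold required and at 1.48 in OE (adjusted p = 0.591), and *Sstr2* was at 0.40 and 0.022 (adjusted p = 0.127 and 0.981). *Ucn3*, the β cell peptide urocortin 3 that stimulates delta cells, was called lower in cKO as a level at −1.08 (limma adjusted p = 0.0273) but not as a ratio to insulin (−0.51, adjusted p = 0.0460), and was at 1.10 in OE (adjusted p = 0.591).

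Among enzymes that cut or modify the peptides, 5 of 6 were tested. In cKO 4 had negative values and 1, *Dpp4*, which trims peptide YY and other peptides, was called lower as a level at −1.07 (limma adjusted p = 0.0147) but not as a ratio to insulin (−0.50, adjusted p = 0.0362). *Pcsk2*, a prohormone convertase, was at −0.56 (adjusted p = 0.0213) and *Cpe*, carboxypeptidase E, at −0.47 (adjusted p = 0.0253), both under the fold required, and *Pcsk1*, the other convertase, was at 0.23 (adjusted p = 0.232). In OE all 5 had positive values (median 1.27) and none was called. *Ttr*, transthyretin, the plasma partner of RBP4 that α cells also express, was called lower in cKO as a level at −1.02 (limma adjusted p = 0.0180) but not as a ratio to insulin (−0.45, adjusted p = 0.183), and was at 1.40 in OE (adjusted p = 0.591). Of 13 transcription factors of endocrine lineages 12 were tested, with 9 negative values in cKO (median −0.28, all genes −0.34) and 12 positive values in OE (median 0.95), and none was called in either comparison.

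Likeness between genes was described by Pearson correlation over the 16 libraries of the log2 ratio to insulin, centred within each table, among 10386 genes. These values share the insulin denominator, and in the HFD table they share the distance of Ctrl5 from the rest. The gene most like *Sst* was *Rbp4* (r = 0.97; 0.84 over the 8 chow and 0.99 over the 8 HFD libraries), followed by *Pcsk2* (0.94), *Gcg* (0.94), *H2bu2* (0.92) and *Arg1* (0.91). The values for *Pcsk2* and *H2bu2* came from the HFD table, at 0.99 and 0.98, with 0.034 and 0.097 in the chow table. For *Ppy* they were *Folr1* (0.89), *Pyy* (0.84), *Slc29a4* (0.77), *Cplx2* (0.76) and *Tubb4a* (0.75). *Folr1*, a folate receptor, and *Pyy* kept their likeness to *Ppy* in both tables, at 0.91 and 0.89 over the chow libraries and 0.88 and 0.95 over the HFD libraries. For *Pyy* they were *H2bu2* (0.91), *Aplp1* (0.91), *Sst* (0.90), *Pcsk1n* (0.89) and *Pcsk2* (0.89), and none of these held over the chow libraries alone, where they were 0.089, 0.074, −0.095, −0.35 and −0.50. *Ghrl* had no gene as close, with *Abhd2* at 0.78, *Dner* at 0.71, *Nell1* at 0.71, *Megf9* at 0.71 and *Klf11* at 0.70. In this order they were at 0.58, 0.36, 0.31, 0.31 and 0.39 over the chow libraries. Over the HFD libraries they were at 0.87, 0.90, 0.90, 0.84 and 0.82, values that hold the separation of OE from Ctrl that had a part in choosing *Ghrl*.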

How the data were processed

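Islet RNA was sequenced on an Illumina NovaSeq instrument. The authors deposited FPKM values per gene in 2 tables, 1 for the chow and 1 for the HFD libraries, with mm10 as the genome build per the submitters' notes. Aligner, counter and annotation are not given in the sources used here. All 16 columns were matched to samples by name (0 columns left out). The members and lists were chosen with earlier results of these data known.

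From the deposited FPKM, log2(FPKM + 0.5) was fitted per table with limma 3.58.1 in R 4.3.3 (variance trend, robust empirical Bayes, Benjamini-Hochberg over all genes averaging 0.5 FPKM or more), tested on simulated data. Fold changes are on this scale. The ratio fit subtracts log2(*Ins1* + *Ins2*). *Ghsr* in OE against Ctrl had a two-sided exact permutation test (scipy 1.17.1). Replicate numbers are shared by label only. Same-gene fragment numbers came from the steps between FPKM values. No libraries were duplicates.

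Genes named are the 7 members, *Ins1*, *Ins2* and *Vtcn1*, up to 4 genes of a list (highest mean FPKM, and any called; 1 is not reported here), and the 5 genes most like *Sst*, *Ppy*, *Pyy* and *Ghrl*. *Gcg*, *Tph1* and the neuron, enterocyte and gut secretory cell genes beside *Ghrl* were chosen after their values were seen. Alternatives changed the pseudocount (0.1, 1), filter, variance model, scaling, denominator, call rule, libraries and replicate block. Sequences are from RefSeq for GRCm38.p6 and positions from GENCODE. Summed FPKM was 686299 to 865112 per library, depth is otherwise unknown, and 4 libraries per group limit precision.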

Additional observations from a re-analysis of the deposited data

Results flagged for a closer look

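In groups of 4 a library was picked out when its gap to the nearest library took more of the group's range than Dixon's 95% critical value for 4 values. Among 56 groups of member values looked at, 9 met this, and 6 of the 9 were on the same library, Ctrl5. About 1 in 20 independent groups of normally distributed values would meet it. These groups are not independent, as each gene counts on both scales and several members varied together. The 9 can therefore not be set against that rate. Ctrl5 had *Sst* at 59.4, *Rbp4* at 0.942, *Ghsr* at 0.00388, *Ppy* at 65.1 and *Pyy* at 50.0 per 1000 FPKM of insulin RNA, far above the other Ctrl libraries, which reached at most 10.4, 0.177, 0.000673, 8.26 and 7.51. Its *Ppy* FPKM of 16288 was likewise far above the others, which were at 283 to 2821. OE4 had the lowest *Sst* of its group at 16.2 per 1000 FPKM of insulin, with the others at 23.0 to 23.7. cKO12 had *Ghrl* at 7.62 FPKM and at 0.0399 per 1000 FPKM of insulin, with the other cKO libraries at 0.292 to 0.842 FPKM and at most 0.00460.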

How the results depend on the processing

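Of 426 member fold changes under alternatives, 392 kept their direction and, *Ghrl* in OE against Ctrl apart, their side of the threshold. For *Ghrl* in OE against Ctrl no side was assessed, and a value counted as kept when it moved less than the spread between libraries. Of the rest, 30 turned their direction, 1 passed the threshold and 3 moved beyond that spread. The cause was not tested. *Ghrl* in OE against Ctrl was 2.97 and 5.17 with pseudocounts of 1 and 0.1, and 3.998 as a ratio with 0.1. *Hhex* as a ratio in OE passed without Ctrl1 (−1.44, limma adjusted p = 0.0117; 0.0117 to 0.422 over its alternatives), where 4487 of 12073 genes passed.

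Directions turned in cKO against Flox with the heatmap libraries of the study (*Hhex* −0.18 and *Ppy* 0.058 as levels; *Ghrl* 0.61 and *Ppy* 0.75 as ratios), without cKO8 (*Hhex* −0.093; −0.093 to 0.21 leaving out 1 library), with pseudocounts of 1 (ratio of *Ghrl* 0.17) and 0.1 (ratio of *Ghsr* −0.24), and with the summed pan-endocrine genes as denominator (*Ghsr* −0.14, *Pyy* −0.22, *Rbp4* −0.048, *Sst* −0.044). Leaving out 1 library turned the ratio of *Ghrl* (0.042, 0.37, 0.24, 0.37 and 0.11 without Flox16, Flox17, cKO8, cKO9 and cKO38; −0.74 to 0.37), *Pyy* (−0.11, −0.0084, −0.15 and −0.020 without Flox16, Flox20, cKO12 and cKO38) and *Ppy* (0.19 and 0.42 without Flox17 and cKO8; −0.61 to 0.42). In OE against Ctrl, *Hhex* turned with median-of-ratios scaling (−0.34) and without Ctrl2 (−0.14; −0.14 to 0.58). Without Ctrl2 and Ctrl3, chosen after seeing the data, *Hhex* (−0.50), *Pyy* (−0.41) and *Sst* (−0.095) turned as levels and *Pyy* (−0.54), *Rbp4* (−0.062) and *Sst* (−0.23) as ratios, and the *Ghsr* difference was −0.0668 FPKM; leaving out 1 library it was 0.129 to 0.451.

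Genes called in cKO against Flox were 155 (40 higher, 115 lower). They were 1631 with no fold minimum, 84 and 307 with pseudocounts of 1 and 0.1, 0 with every gene above 0 (5539 at unadjusted p below 0.05), 272 with no variance trend, 699 with the heatmap libraries and 36 (26 higher, 10 lower) with median-of-ratios scaling. Leaving out 1 library gave 18 to 507, with counts over 1.5 times apart without Flox16 (491), Flox17 (507), Flox20 (47), Flox21 (44), cKO9 (18) and cKO38 (60). As a ratio 241 (235 higher, 6 lower) were called, 1602 with no fold minimum, 400 with every gene above 0, 389 with no variance trend and 40 (34 higher, 6 lower) with the pan-endocrine denominator, and 0 to 675 leaving out 1 library (675 without Flox16, 20 without Flox20, 30 without Flox21, 0 without cKO9 or cKO12, 35 without cKO38). In OE against Ctrl 4 were called, 10 with every gene above 0 and 649 without Ctrl2 and Ctrl3, and leaving out 1 library gave 4 to 5. As a ratio 0 were called, 397 and 1 with pseudocounts of 1 and 0.1, 834 with every gene above 0, 1889 with the heatmap libraries, 329 with the pan-endocrine denominator and 651 without Ctrl2 and Ctrl3; leaving out 1 library gave 0 to 4487 (4487 without Ctrl1, 212 without Ctrl2, 293 without Ctrl3).

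Replicate numbers are only shared: the deviations of same-numbered libraries correlated at −0.21 to 0.12 in the chow and −0.13 to 0.10 in the HFD table. With the replicate block 268 genes were called in cKO against Flox (143 as a ratio), 4 in OE against Ctrl and 1558 as a ratio, and no member's call changed.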
